A study of Mus musculus with 26 samples.

Results

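The genes described here encode proteases that remodel the extracellular matrix, an inhibitor of them, and the activators and receptor of the plasminogen system. They are the matrix metalloproteases *Mmp3*, *Mmp9*, *Mmp10*, *Mmp13* and *Mmp14*, the inhibitor *Timp1*, the plasminogen activators *Plau* and *Plat* and the urokinase receptor *Plaur*. They were taken by symbol from a table of gene counts, and 9 of its 56738 gene symbols are members. All 9 had a mean normalized count over 10 across the 26 libraries, the filter that left 16893 genes for testing.

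The cells were keratinocytes, the main epithelial cell of the epidermis, taken from C57BL/6NJ neonates aged 2 days that were either wild type (WT) or lacked *Pla2g4d* (KO). *Pla2g4d* encodes a member of the cytosolic phospholipase A2 family, and the KO allele (em1, made with CRISPR) lacks exon 3. Cells of each animal grew for 4 days in EpiLife medium with HKGS growth supplement and 0.06 mM CaCl2, a low calcium concentration that limits differentiation. They were then left untreated (basal) or received IL17A and TNFα, each at 20 ng/ml, for 24 h. RNA of 2 wells was pooled per animal and condition, so each of the 13 mice gave 1 basal and 1 treated library. This gave 5 WT basal, 5 WT cytokine, 8 KO basal and 8 KO cytokine libraries. Sex, litter and sequencing batch were not given. Per the paper, heterozygous animals were backcrossed to C57BL/6NJ and the line was then bred as homozygotes. WT and KO pups would then not be littermates, and litter was not separated from genotype. Total counts ranged from 42072745 to 63120607 in WT basal, from 46393919 to 72562322 in WT cytokine, from 45910502 to 74595457 in KO basal and from 42726350 to 78102858 in KO cytokine libraries. Levels are given as CPM, the count of a gene scaled to the TMM-normalized library size, as mean ± SD.

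The targeted gene was examined first. In WT basal libraries *Pla2g4d* was at 1.22, 4.41, 3.14, 3.34 and 4.63 CPM in replicates 1 to 5, and in KO basal libraries it ranged from 1.15 to 2.98 CPM (median 2.10, n = 8). With cytokines it was at 28.6, 65.2, 47.1, 57.2 and 62.9 CPM in WT libraries and from 29.2 to 59.2 CPM (median 36.2, n = 8) in KO libraries. By edgeR *Pla2g4d* was lower in KO than in WT basal cells (log2 fold change -0.70, SE 0.26, edgeR adjusted p = 0.0935), past the thresholds used throughout (fold change 1.5, adjusted p 0.1). With cytokines its log2 fold change of -0.45 (SE 0.23, edgeR adjusted p = 0.345) did not pass. Libraries of the genotypes overlapped in both conditions, and WT replicate 1 was the lowest WT library in each. Counts per gene include reads outside the deleted exon and therefore do not check the loss of exon 3.

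The label of keratinocytes was compared with marker genes. All 8 markers of basal layer keratinocytes passed the filter, and their summed level was 44020 ± 2053, 35270 ± 1049, 43720 ± 1956 and 35500 ± 492.7 CPM in WT basal, WT cytokine, KO basal and KO cytokine libraries, with *Krt5* the most abundant. *Krt14* went from 16220 ± 485 to 11770 ± 135 CPM in WT (log2 fold change -0.46, edgeR adjusted p = 7.36e-10) and *Krt5* from 21180 ± 1590 to 17060 ± 928 CPM (-0.31, edgeR adjusted p = 9.64e-06), which are under a fold change of 1.5. In KO cells the log2 fold change was -0.45 for *Krt14* (edgeR adjusted p = 8.89e-12) and -0.31 for *Krt5* (edgeR adjusted p = 2.30e-07). *Krt15*, at 15.2 ± 5.22 CPM in WT basal cells, passed both thresholds and fell in each genotype. The other markers did not fall as a set. *Itgb4* was higher by less than a fold change of 1.5 in WT (0.31, edgeR adjusted p = 0.000191) and KO cells (0.24, edgeR adjusted p = 0.000236). So was *Itga6* in KO cells (0.16, edgeR adjusted p = 0.0368). *Dsg3* was slightly lower in WT cells (-0.12, edgeR adjusted p = 0.0762). For *Trp63* and *Col17a1* the edgeR adjusted p was at least 0.22 in each genotype. Markers of other cell types were present at far lower summed levels. The 7 melanocyte markers summed to 563 ± 75.4, 444 ± 58.7, 567.5 ± 57.4 and 350.3 ± 32.4 CPM in the same order of groups, with *Tyrp1* the most abundant. The 10 fibroblast markers summed to 44.5 ± 3.17, 34.5 ± 2.65, 41.3 ± 2.75 and 37.3 ± 2.04 CPM, of which *Fbln1* made up most. For the 10 leukocyte markers the sums were 27.3 ± 4.50, 43.0 ± 8.99, 30.6 ± 7.03 and 38.0 ± 11.1 CPM, mostly from *Cd68*, and *Cd207* was at 0 in all 26 libraries. The 6 endothelial markers summed to 3.84 ± 0.811, 6.25 ± 1.18, 4.41 ± 1.05 and 6.77 ± 0.724 CPM, with *Pecam1* the most abundant by its mean over the libraries, and *Emcn* was at 0 in all 26 libraries.

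Matrix metalloproteases are zinc-dependent enzymes that cleave collagens and other proteins of the matrix and basement membrane, and the tissue inhibitors of metalloproteases (TIMPs) bind and block them. Urokinase, bound to its receptor on the cell surface, and tissue-type plasminogen activator convert plasminogen to plasmin, which dissolves fibrin and can activate latent metalloproteases. In skin both systems are known for their part in keratinocyte migration during wound closure.

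Several promoters of this family are known to carry a site of the AP-1 type, so the letters of this motif were searched in the 120 bases before the transcription start. The RefSeq promoter table (GRCm38.p6) matched 6 of the 9 genes, and *Mmp9*, *Plau* and *Plat* had no entry. TGAGTCA or TGACTCA, which are the reverse complements of each other, was found in *Mmp3*, *Mmp10*, *Mmp13* and *Plaur* and not in *Mmp14* or *Timp1*. Of 32851 promoters in the table, 757 (2.3%) held it in the same window. TATAAA (either strand) was found in *Mmp3*, *Mmp10* and *Mmp13* and in 6.34% of all promoters, and AGGAAG (PEA3, either strand) in *Mmp13* and *Timp1* and in 16.3% of all promoters. None of the 6 windows held an NF-kB match (either strand), which 3.65% of all promoters had. No matches of different motifs overlapped, and a match is a description of these letters alone. In GRCm39 the *Mmp14* window (chr14:54668935-54669054) lies inside the gene as annotated in GENCODE, which starts at 54668878. The *Timp1* window (chrX:20736285-20736404) runs past the annotated start at 20736316. For these genes the search therefore does not describe the bases before the annotated start alone.

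The 4 windows with the AP-1 letters are printed because 3 of these genes passed the test of the cytokine effect in both genotypes and *Mmp10* passed it in neither. Each sequence had 1 exact match in GRCm39, at chr9:7445702-7445821 for *Mmp3*, chr9:7502223-7502342 for *Mmp10*, chr9:7272394-7272513 for *Mmp13* and chr7:24161788-24161874 for *Plaur*, all on the plus strand. The *Plaur* window is shown up to the annotated start of the gene, 87 bases. Capitals mark the AP-1 letters, which lie 46 to 40, 63 to 57, 35 to 29 and 69 to 63 bases before the RefSeq start. For *Plaur* the RefSeq start lies past the annotated start, so its position is not counted from the end of the sequence shown.
Mmp3: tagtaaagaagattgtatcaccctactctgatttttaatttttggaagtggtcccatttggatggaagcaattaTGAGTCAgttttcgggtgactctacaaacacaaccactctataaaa
Mmp10: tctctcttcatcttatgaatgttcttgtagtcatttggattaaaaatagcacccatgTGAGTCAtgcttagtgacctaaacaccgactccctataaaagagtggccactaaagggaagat
Mmp13: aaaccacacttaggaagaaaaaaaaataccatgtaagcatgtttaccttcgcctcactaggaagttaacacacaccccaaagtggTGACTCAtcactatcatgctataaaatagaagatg
Plaur: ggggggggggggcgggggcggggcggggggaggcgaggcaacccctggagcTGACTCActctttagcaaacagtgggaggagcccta

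*Mmp3*, *Mmp10* and *Mmp13* lie on chromosome 9. In the GENCODE annotation of GRCm39 *Mmp13* spans 7272514 to 7283331, *Mmp3* 7445822 to 7455975 and *Mmp10* 7502353 to 7510241. *Mmp14* (54668878 to 54682821) and *Plau* (20886722 to 20893453) are on chromosome 14. *Plaur* is on chromosome 7 (24161875 to 24175394), *Plat* on chromosome 8 (23247709 to 23272871), *Mmp9* on chromosome 2 (164780439 to 164797771) and *Timp1* on the X chromosome (20736316 to 20740976).

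Treatment with IL17A and TNFα raised *Mmp3*, *Mmp9*, *Mmp13*, *Plau* and *Plaur* in WT and in KO cells. A gene was counted as changed with an adjusted p under 0.1 in edgeR (Benjamini-Hochberg, over all genes tested) and a fold change over 1.5. By this rule 5 of 9 members rose in WT cells, where 8.65% of all genes tested rose and 5.26% fell. In KO cells 5 of 9 rose, where 6.33% of all genes rose and 4.55% fell. No member fell in either genotype by edgeR with all libraries, by DESeq2 or by limma, and at an unadjusted p under 0.05 edgeR gave the same 5 genes, all higher, where 39.4% of all genes in WT and 38.5% in KO cells were under it. The median log2 fold change of the 9 members was 0.96 in WT and 0.78 in KO cells, beside 0.014 and 0.0046 over all genes tested. In bulk RNA, fewer cells of a type and less RNA per cell cannot be told apart. Melanocyte markers also moved with the cytokines, 2 of 7 falling in WT and 4 of 7 in KO cells, and so did endothelial markers, 2 rising and 1 falling of 4 tested in WT and 3 rising and 1 falling in KO cells. Of the fibroblast markers 1 of 9 tested (*Col1a2*) fell in each genotype, and of the leukocyte markers 1 of 4 tested (*Cd68*) rose in WT. Their part in the results was not tested.

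**Figure D1:**
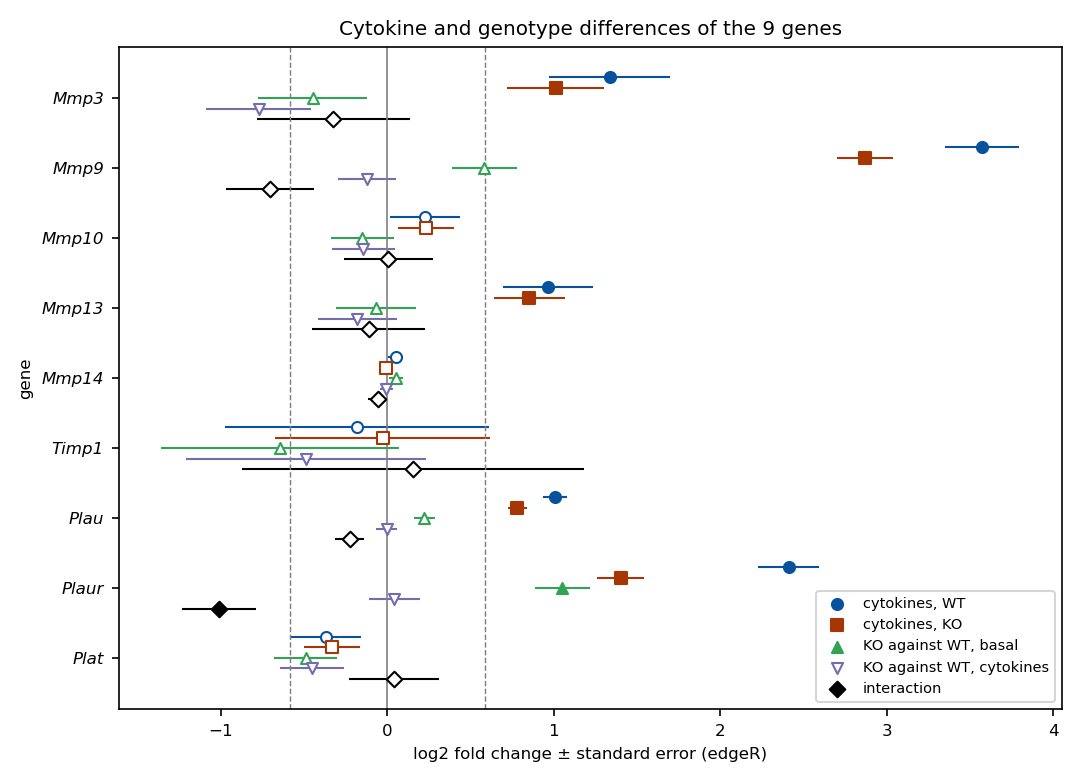
Log2 fold change (horizontal axis) with its standard error from edgeR for the 9 genes in 5 contrasts, with filled symbols for those past both thresholds and dashed lines at a fold change of 1.5 in each direction. The filled symbols of the cytokine contrasts stand at *Mmp3*, *Mmp9*, *Mmp13*, *Plau* and *Plaur*, and *Plaur* alone has filled symbols for the basal genotype contrast and the interaction.

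*Mmp9*, gelatinase B, which cleaves denatured collagen and type IV collagen, had the largest log2 fold change of the 9 genes in each genotype. Its WT basal libraries were at 2.33, 2.29, 2.45, 1.51 and 2.03 CPM and the WT cytokine libraries at 16.4, 20.3, 27.98, 26.9 and 34.8 CPM (replicates 1 to 5). KO basal libraries ranged from 2.33 to 4.68 CPM (median 3.04, n = 8) and KO cytokine libraries from 15.04 to 31.8 CPM (median 23.8, n = 8). All treated libraries were above all basal libraries in each genotype. The mean rose from 2.12 ± 0.374 to 25.3 ± 7.16 CPM in WT cells (n = 5). In KO cells (n = 8) it rose from 3.18 ± 0.753 to 23.2 ± 5.65 CPM. The log2 fold change was 3.57 (SE 0.22, edgeR adjusted p = 2.15e-13) in WT and 2.87 (SE 0.17, edgeR adjusted p = 4.40e-14) in KO cells.

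*Mmp13*, the interstitial collagenase of rodents, was more variable among animals. WT basal libraries were at 15.8, 42.3, 58.3, 37.7 and 45 CPM and WT cytokine libraries at 39.6, 58.4, 111, 70.9 and 109 CPM. In KO cells the basal libraries ranged from 28.02 to 57.5 CPM (median 35.1, n = 8) and the treated ones from 50.0 to 105 CPM (median 67.2, n = 8). Treated and basal libraries overlapped in both genotypes, but within each of the 13 mice the treated library was the higher one. WT replicate 1 was the lowest WT library in both conditions. *Mmp13* rose by a log2 fold change of 0.96 (SE 0.27, edgeR adjusted p = 0.00630) in WT and 0.85 (SE 0.21, edgeR adjusted p = 0.00241) in KO cells.

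*Mmp3*, stromelysin 1, which degrades proteoglycans and several matrix proteins and can activate other metalloproteases, was expressed at a low level. WT basal libraries were at 2.604, 2.81, 2.71, 1.196 and 2.98 CPM and WT cytokine libraries at 3.98, 7.92, 5.91, 5.72 and 7.40 CPM. KO basal libraries ranged from 0.542 to 3.47 CPM (median 1.74, n = 8) and KO cytokine libraries from 1.15 to 5.68 CPM (median 3.61, n = 8). In WT cells all 5 treated libraries were above all basal libraries, whereas in KO cells 4 of 8 treated libraries were. All 13 mice had more *Mmp3* RNA in the treated library. The log2 fold change was 1.33 (SE 0.36, edgeR adjusted p = 0.00522) in WT and 1.01 (SE 0.29, edgeR adjusted p = 0.00805) in KO cells.

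*Mmp10*, stromelysin 2, and *Mmp14*, a membrane-anchored metalloprotease that activates pro-MMP2, did not pass the test in either genotype. *Mmp10* ranged from 2.74 to 6.28 CPM in WT basal, 3.49 to 6.96 in WT cytokine, 3.25 to 5.99 in KO basal and 3.402 to 6.22 CPM in KO cytokine libraries. Its log2 fold change was 0.23 in WT (edgeR adjusted p = 0.463) and 0.23 in KO cells (edgeR adjusted p = 0.335), and its window before the start carries the AP-1 letters printed above. *Mmp14* ranged from 158 to 179 CPM in WT basal, 167 to 178 in WT cytokine, 159 to 193 in KO basal and 162 to 178 CPM in KO cytokine libraries. Libraries of both genes overlapped in all comparisons of groups. Within mice, the treated library had more *Mmp10* RNA in 5 of 5 WT mice (log2 changes of 0.0073 to 0.34) and in 5 of 8 KO mice. For *Mmp14* it was the higher one in 4 of 5 WT and 4 of 8 KO mice. Neither gene passed with the mouse as a fixed block. The log2 fold change of *Mmp14* was 0.050 (SE 0.045) in WT and -0.0075 (SE 0.035) in KO cells. An annotated antisense gene, *Gm62879*, overlaps 219 of the 6166 exonic bases of *Mmp14*, and since the strand setting of the counting was not stated, reads of both cannot be told apart there.

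**Figure D2:**
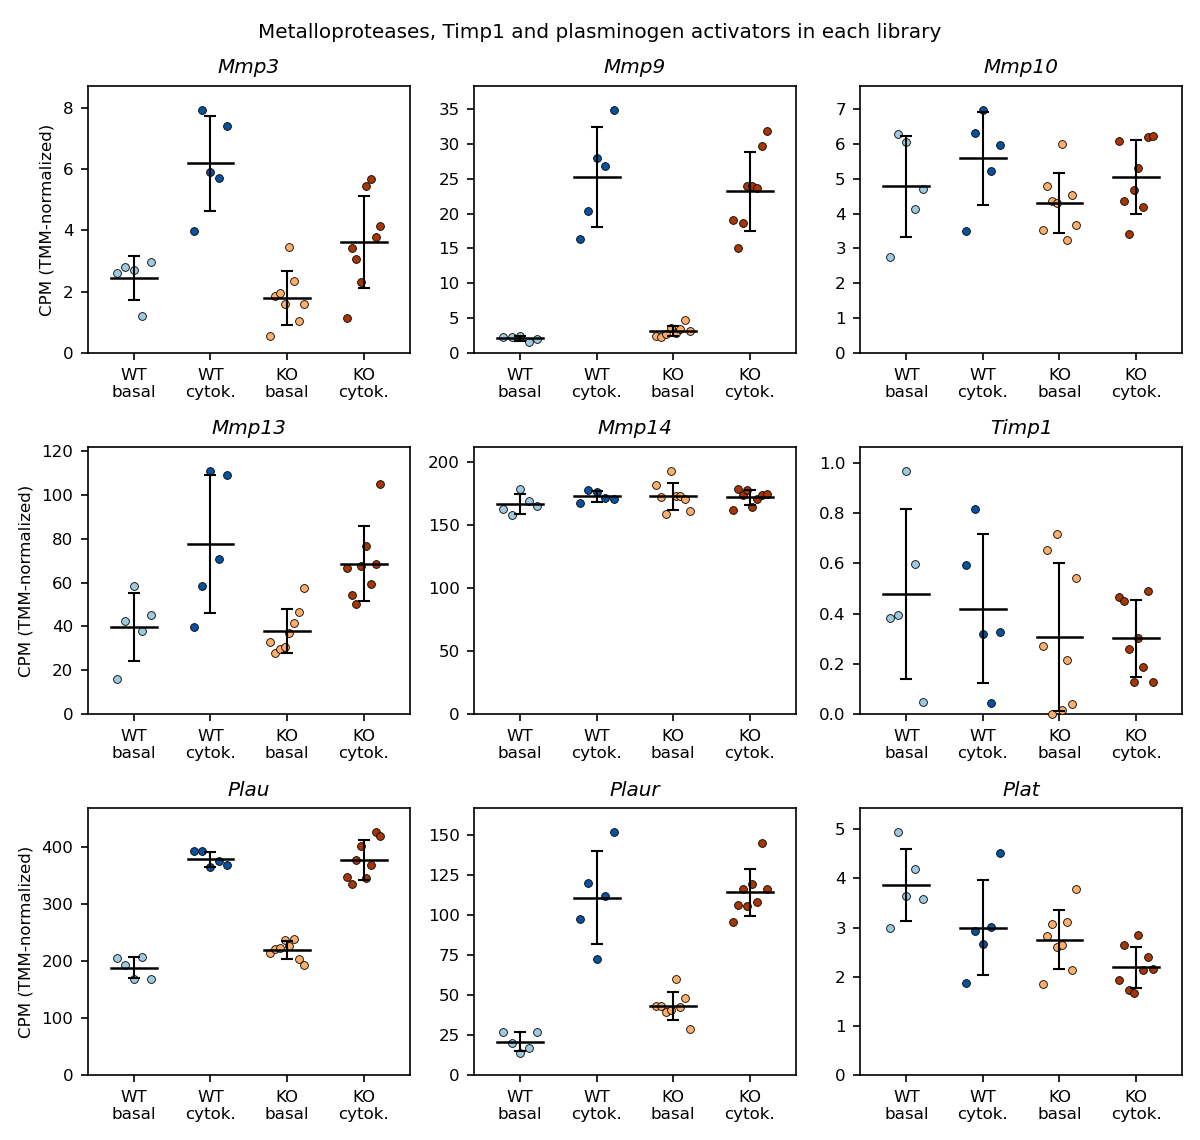
CPM (vertical axes, from 0) of the 9 genes in each library, 1 point per library, with the mean as a horizontal line and the SD as an error bar, for WT basal (n = 5), WT cytokine (n = 5), KO basal (n = 8) and KO cytokine (n = 8) libraries. *Mmp9* and *Plau* of treated cells lie above all basal libraries of their genotype, *Plaur* of KO basal libraries lies above that of WT basal libraries, and *Mmp14* lies between 158 and 193 CPM.

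*Timp1*, a secreted inhibitor of metalloproteases, had counts of 0 to 60 per library, about 2 times the fragments if both reads of each pair were counted, which was not stated. It was at 0.478 ± 0.337 CPM in WT basal, 0.419 ± 0.295 in WT cytokine, 0.307 ± 0.293 in KO basal and 0.301 ± 0.152 CPM in KO cytokine libraries, and all groups overlapped. The log2 fold change with cytokines was -0.18 (SE 0.79) in WT and -0.029 (SE 0.65) in KO cells, and neither passed the test. Its sign was not stable. With limma on the log2 values it was 0.74 in KO cells. Leaving out 1 mouse gave -0.63 to 0.32 in WT and -0.34 to 0.41 in KO cells. A list of other inhibitors held *Timp2*, *Timp3*, *Timp4* and *Reck*, of which 3 of 4 passed the filter. In each genotype 1 of these rose and 1 fell with cytokines. *Timp2*, which blocks metalloproteases and also takes part in the activation of pro-MMP2, rose from 20.7 ± 2.65 to 55.5 ± 8.49 CPM in WT cells (log2 fold change 1.42, SE 0.10, edgeR adjusted p = 4.64e-12). In KO cells *Timp2* rose from 24.9 ± 2.85 to 58.8 ± 4.78 CPM (log2 fold change 1.24, SE 0.080, edgeR adjusted p = 3.97e-13). *Timp3*, a TIMP that binds to the matrix, fell from 369 ± 44.4 to 231 ± 29.8 CPM in WT cells (log2 fold change -0.68, SE 0.081, edgeR adjusted p = 1.14e-07). In KO cells *Timp3* fell from 479 ± 23.2 to 273 ± 23.4 CPM (log2 fold change -0.81, SE 0.064, edgeR adjusted p = 2.99e-11). By genotype 0 of the 3 passed in either condition or in the interaction by edgeR. Past the threshold on the adjusted p but under that on the fold change were *Timp3* in basal cells (log2 fold change 0.38, edgeR adjusted p = 0.000994) and with cytokines (0.24, edgeR adjusted p = 0.0968) and *Timp2* in basal cells (0.26, edgeR adjusted p = 0.0692). *Reck*, a membrane-anchored inhibitor, was under 1 CPM on average in each group and did not pass the test.

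*Plau*, which encodes urokinase, was abundant and varied little among animals. WT basal libraries were at 205, 193, 169, 207 and 169.5 CPM and WT cytokine libraries at 393, 393, 366, 376 and 369 CPM. KO basal libraries ranged from 193 to 239.5 CPM (median 222, n = 8) and KO cytokine libraries from 336 to 427 CPM (median 373, n = 8). Basal and treated libraries did not overlap in either genotype. *Plau* rose by a log2 fold change of 1.01 (SE 0.070, edgeR adjusted p = 2.57e-12) in WT and 0.78 (SE 0.055, edgeR adjusted p = 2.73e-12) in KO cells. An annotated antisense gene, *Gm63115*, overlaps 388 of the 2567 exonic bases of *Plau*, with the same limit as for *Mmp14*.

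*Plaur*, the membrane-anchored urokinase receptor, rose in both genotypes and differed between them under basal conditions. WT basal libraries were at 26.6, 20.0, 13.8, 17.0 and 27.0 CPM and WT cytokine libraries at 97.5, 120.3, 72.8, 112 and 152 CPM. In KO cells the basal libraries ranged from 28.6 to 59.8 CPM (median 42.8, n = 8) and the treated ones from 95.7 to 145 CPM (median 112, n = 8). All KO basal libraries were above all WT basal libraries, and all treated libraries were above all basal libraries of their genotype, while the treated libraries of the genotypes overlapped. The mean rose from 20.9 ± 5.82 to 111 ± 29.1 CPM in WT cells. In KO cells it rose from 43.2 ± 8.77 to 114 ± 14.7 CPM. With cytokines the log2 fold change was 2.41 (SE 0.18, edgeR adjusted p = 1.55e-11) in WT and 1.40 (SE 0.14, edgeR adjusted p = 3.04e-09) in KO cells.

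*Plat*, tissue-type plasminogen activator, was low and did not pass the test. It was at 3.87 ± 0.734 CPM in WT basal, 2.998 ± 0.962 in WT cytokine, 2.76 ± 0.607 in KO basal and 2.19 ± 0.420 CPM in KO cytokine libraries. The treated library was the higher one in 1 of 5 WT mice (replicate 5) and in 3 of 8 KO mice. The log2 fold change was -0.37 (SE 0.21, edgeR adjusted p = 0.199) in WT and -0.33 (SE 0.17, edgeR adjusted p = 0.149) in KO cells. Without WT replicate 5 the log2 fold change in WT was -0.59 with an edgeR adjusted p of 0.0524, past both thresholds, and over the fits that each left out 1 mouse the adjusted p ranged from 0.0524 to 0.485.

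The genotypes were compared within each condition. Under basal conditions 1 of 9 members, *Plaur*, was higher in KO cells, where 1.61% of all genes tested were higher and 1.07% lower (453 genes in all, and 824 without WT replicate 1). Its log2 fold change was 1.05 (SE 0.17, edgeR adjusted p = 7.74e-05), from 20.9 ± 5.82 CPM in WT to 43.2 ± 8.77 CPM in KO cells. *Mmp9* was just under the threshold on the fold change, with a log2 fold change of 0.584 (SE 0.20, edgeR adjusted p = 0.0605), and 7 of 8 KO basal libraries were above all WT basal libraries. It passed with DESeq2 (0.585 with an adjusted p of 0.0206, in a range from 0.0206 to 0.448 over the alternatives that kept all mice). Leaving out 1 mouse, it passed without WT replicate 1 (log2 fold change 0.62), 2 (0.61) or 3 (0.64) or KO replicate 1 (0.63), 2 (0.64), 3 (0.61) or 5 (0.60). *Plau* had a small difference, with a log2 fold change of 0.22 (SE 0.063, edgeR adjusted p = 0.0239), under the threshold on the fold change, and 6 of 8 KO libraries lay over every WT library. *Plat* had a log2 fold change of -0.49 (SE 0.19, edgeR adjusted p = 0.103), which did not pass the test, and 5 of 8 KO libraries lay under every WT library. At an unadjusted p under 0.05 edgeR gave these 4 members, *Plaur*, *Mmp9*, *Plau* and *Plat*, where 22.4% of all genes were under it. For the other 5 members the edgeR adjusted p was at least 0.461. Among markers of other cell types, the endothelial gene *Pecam1* was also higher in KO basal cells (0.816 ± 0.404 CPM in WT, 1.59 ± 0.528 in KO). The other endothelial markers tested did not pass, and *Vwf* and *Tie1* went the other way. Their log2 fold changes were 0.30 for *Kdr*, -0.37 for *Vwf* and -0.44 for *Tie1*. The part of *Pecam1* in the *Plaur* difference was not tested.

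With cytokines 0 of 9 members differed between the genotypes by edgeR, where 0.704% of all genes tested differed. That share is 119 genes, and the number was 558 without WT replicate 1, 291 without KO replicate 8 and 44 without WT replicate 3. DESeq2 also gave 0, as did limma on log2 values, and at an unadjusted p under 0.05 edgeR gave 2, *Mmp3* and *Plat*, where 15% of all genes were under it. *Mmp3* was at 6.19 ± 1.55 CPM in WT (n = 5) and 3.63 ± 1.51 CPM in KO cells (n = 8), and 5 of 8 KO libraries lay under every WT library. Its log2 fold change of -0.77 (SE 0.32, edgeR adjusted p = 0.229) passed the thresholds with the mouse as a random block in limma (log2 fold change -0.87, adjusted p = 0.0918, in a range from 0.0918 to 0.265 over the alternatives that kept all mice). In the same contrast the 7 melanocyte markers went from a sum of 444 ± 58.7 in WT to one of 350.3 ± 32.4 CPM in KO cells. Lower in KO cells by less than the threshold on the fold change were *Pmel* (log2 fold change -0.57, edgeR adjusted p = 0.0168) and *Dct* (-0.47, edgeR adjusted p = 0.0168). The same held for *Tyr* (-0.43, edgeR adjusted p = 0.0259) and *Mlana* (-0.38, edgeR adjusted p = 0.0923). These genes were named after their values were seen. The other melanocyte markers passed neither threshold, with log2 fold changes of -0.30 for *Mitf*, -0.14 for *Tyrp1* and, the other way, 0.089 for *Sox10*. The part of the melanocyte markers in the *Mmp3* difference was not tested. *Plat* had a log2 fold change of -0.45 (SE 0.19, edgeR adjusted p = 0.245). *Plaur*, which was higher in KO cells under basal conditions, had a log2 fold change of 0.043 (SE 0.16) with cytokines, and *Plau* one of -0.0047 (SE 0.063).

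The difference between the cytokine responses of the genotypes was tested as an interaction. The response of *Plaur* was smaller in KO than in WT cells, by -1.01 on the log2 scale (SE 0.22, edgeR adjusted p = 0.0301). It was the single member past the thresholds, 1 of 9, where 0.219% of all genes tested passed and 0.184% had a smaller or more negative change in KO cells. The adjusted p was 0.113 without WT replicate 2 and 0.137 without WT replicate 4, with log2 differences of -0.96 and -0.94, so the call rests on each of these mice. The number of all genes past the thresholds, 37, was 92 without WT replicate 1 and 18 without WT replicate 4. Of the markers of other cell types 0 passed the interaction by edgeR, with log2 differences of -1.09 for the endothelial *Pecam1* (edgeR adjusted p = 0.238) and of -0.50 and -0.41 for the melanocyte genes *Pmel* and *Dct* (edgeR adjusted p = 0.267 and 0.269), named after their values were seen. The other endothelial markers tested went the other way, with log2 differences of 0.11 for *Kdr*, 0.21 for *Vwf* and 0.66 for *Tie1*. The part of these markers in the *Plaur* difference was not tested. With the mouse as a fixed block, *Plaur* had a log2 difference of -0.9957 (SE 0.14, adjusted p = 0.000780), and *Mmp9* also passed with -0.67 (SE 0.19, adjusted p = 0.0841). Over the alternatives that kept all mice the adjusted p of *Plaur* ranged from 0.000780 to 0.0452 and that of *Mmp9* from 0.0841 to 0.613. Without the block *Mmp9* had a log2 difference of -0.70 (SE 0.26, edgeR adjusted p = 0.333) and *Plau* of -0.23 (SE 0.089, edgeR adjusted p = 0.372). For the other 6 members the edgeR adjusted p was at least 0.841. At an unadjusted p under 0.05 there were 3 members, *Mmp9*, *Plau* and *Plaur*, each with the smaller response in KO cells, where 9.13% of all genes were under it.

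Because each mouse gave both libraries, the change was also taken within each mouse as the log2 CPM of the treated minus that of the basal library. For *Plaur* it was 1.87, 2.59, 2.40, 2.71 and 2.49 in the 5 WT mice and ranged from 0.99 to 2.02 (median 1.37) in the 8 KO mice. WT replicate 1, the WT mouse with the smallest change, lay below KO replicate 8, the KO mouse with the largest, and 4 of 5 WT mice lay above all KO mice. The KO minus WT difference of the mean changes was -0.99, and an exact permutation test over all regroupings of the mice (two-sided) gave p = 0.00155, or 0.106 after adjustment over all genes tested, which did not pass 0.1. The smallest p these regroupings can give is 0.000777, and an adjusted p under 0.1 was reached by the 144 genes at that p alone (adjusted 0.0911), whose mice do not overlap between genotypes. The adjusted value passed 0.1 without WT replicate 1 (0.0886) or KO replicate 8 (0.0827), in a range from 0.0827 to 0.204 over the 13 tests that each left out 1 mouse. These mice are the pair that overlapped, so leaving out either removes the overlap. For *Mmp9* the changes were 2.81, 3.14, 3.50, 4.14 and 4.09 in WT mice and between 2.66 and 3.30 (median 2.75) in KO mice, a difference of -0.68 (exact permutation p = 0.0109, adjusted over all genes 0.215). *Plau* changed by 0.86 to 1.124 in WT and 0.60 to 1.121 in KO mice, with 6 of 8 KO mice below all WT mice and a difference of -0.23 (exact permutation p = 0.0451, adjusted over all genes 0.370). For *Mmp3*, *Mmp13*, *Mmp10*, *Mmp14*, *Timp1* and *Plat* the exact permutation p was at least 0.284.

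**Figure D3:**
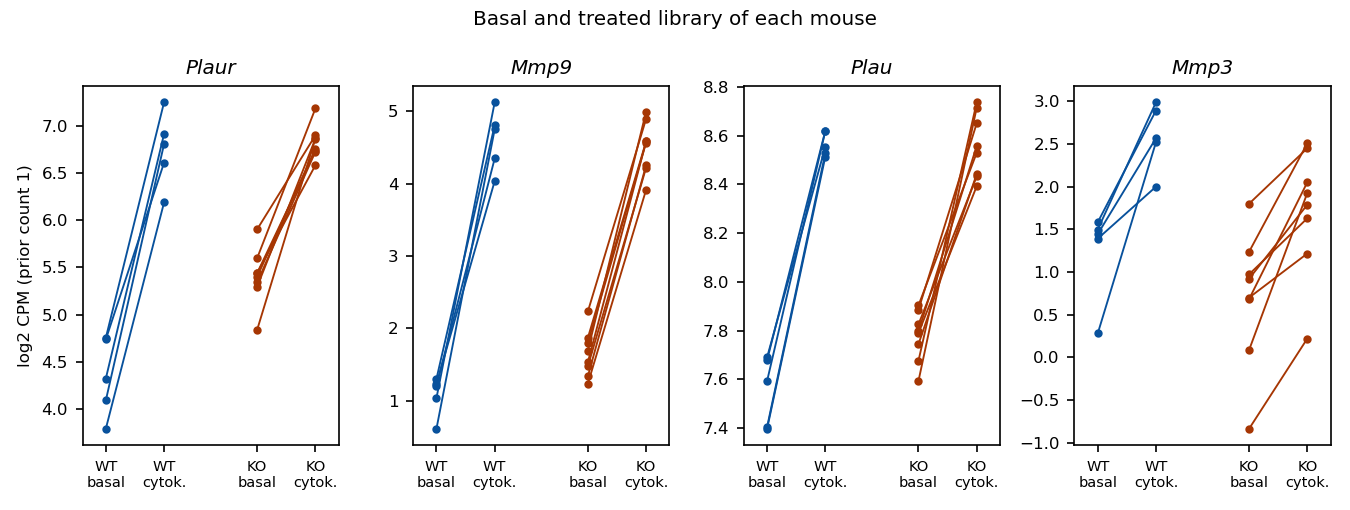
Log2 CPM (vertical axes, prior count 1) of the basal and the treated library of each mouse, joined by a line, for *Plaur*, *Mmp9*, *Plau* and *Mmp3*, genes chosen after their values were seen, in 5 WT and 8 KO mice. All lines rise, and for *Plaur* the KO lines start higher and rise by 0.99 to 2.02, beside 1.87 to 2.71 in WT mice.

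Levels of different genes were compared as CPM per kb of exon. The length counted every base that is exonic in any annotated transcript of the gene. *Mmp3*, *Mmp10* and *Mmp13* have 1 annotated transcript each, beside 8 for *Mmp14*, 12 for *Plaur* and 15 for *Plat*. A gene with many transcripts can have a longer length than the RNA in these cells, which lowers its value. The order of genes therefore also depends on this length, which was not varied. Under basal conditions *Plau* was the highest of the 9 members, at 73.5 ± 7.24 CPM per kb in WT and 85.7 ± 6.07 in KO cells. *Mmp14* followed at 27.1 ± 1.24 CPM per kb in WT and 28.1 ± 1.74 in KO cells, and neither gene overlapped with the next in the order. *Mmp13* (14.9 ± 5.79 CPM per kb in WT) and *Plaur* (5.23 ± 1.46) came next and overlapped, then *Mmp10* (2.78 ± 0.845), *Mmp3* (1.36 ± 0.399), *Mmp9* (0.573 ± 0.101), *Plat* (0.555 ± 0.105) and *Timp1* (0.244 ± 0.172). From *Plaur* down to *Timp1* in WT basal cells, each gene overlapped with the next except *Mmp3* with *Mmp9*. The same order of means held in KO basal cells, with *Plaur* at 10.8 ± 2.19 CPM per kb, clear of *Mmp10*, and *Mmp9* at 0.860 ± 0.203, clear of *Plat*.

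With cytokines *Plau* was again the highest, at 148 ± 5.13 CPM per kb in WT and 147 ± 13.6 in KO cells, and did not overlap with the next gene. *Mmp13*, *Mmp14* and *Plaur* were at 29.1 ± 11.8, 28.02 ± 0.677 and 27.7 ± 7.29 CPM per kb in WT and at 25.6 ± 6.38, 27.9 ± 0.956 and 28.6 ± 3.67 in KO cells, and these 3 could not be ordered beyond their spread. *Mmp9* moved from the seventh place to the fifth, at 6.83 ± 1.93 CPM per kb in WT and 6.27 ± 1.52 in KO cells, and overlapped with neither neighbour in the order. *Mmp3* and *Mmp10* overlapped with each other, and so did *Plat* and *Timp1*, the lowest. Per kb, the inhibitors *Timp3* (45.3 ± 5.45 in WT basal and 28.4 ± 3.66 in WT cytokine cells) and *Timp2* (4.64 ± 0.593 and 12.4 ± 1.90) were both above *Timp1* without overlap.

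**Figure D4:**
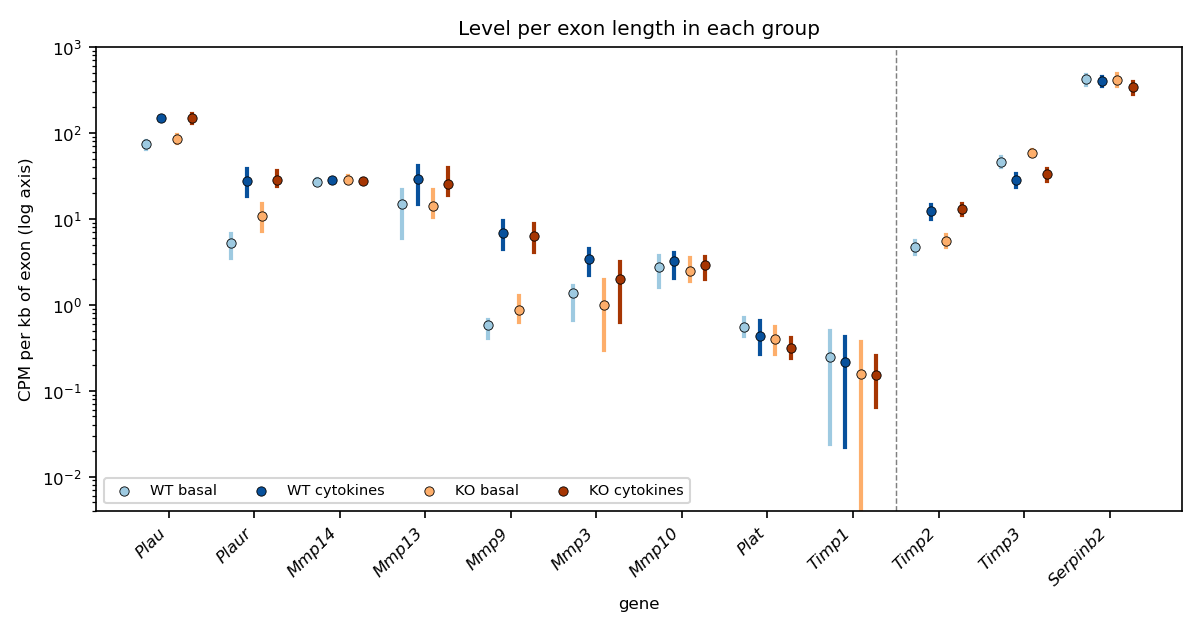
Mean CPM per kb of exon (points, log axis) and the range over libraries (bars) in the 4 groups, for the 9 genes (left of the dashed line) and *Timp2*, *Timp3* and *Serpinb2* (right). *Plau* is the highest and *Timp1* the lowest of the 9 in each group, and the bar of *Timp1* in KO basal cells runs to the lower axis limit because 1 library was at 0.

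The wider family was described from lists. Of 18 other metalloproteases 14 passed the filter, of which 3 rose and 1 fell in WT cells and 2 rose and 2 fell in KO cells with cytokines. *Mmp2*, gelatinase A, rose from 3.23 ± 0.235 to 6.58 ± 1.14 CPM in WT cells (log2 fold change 1.03, SE 0.14, edgeR adjusted p = 6.42e-07). In KO cells *Mmp2* rose from 3.003 ± 0.445 to 7.41 ± 0.937 CPM (log2 fold change 1.30, SE 0.11, edgeR adjusted p = 8.60e-11). *Mmp15*, a membrane-anchored member, fell from 5.54 ± 2.17 to 2.77 ± 0.652 CPM in WT cells (log2 fold change -0.9972, SE 0.23, edgeR adjusted p = 0.000896). In KO cells *Mmp15* was at 4.94 ± 0.920 and 3.83 ± 0.748 CPM (log2 fold change -0.37, edgeR adjusted p = 0.125), and the interaction did not pass (0.63, edgeR adjusted p = 0.484). *Mmp28*, epilysin, the most abundant gene of the list, was at 14.2 ± 3.04, 13.8 ± 2.97, 13.8 ± 2.05 and 16.6 ± 2.75 CPM in WT basal, WT cytokine, KO basal and KO cytokine cells and did not pass the test. Named after their values were seen, *Mmp1b* rose in both genotypes, *Mmp25* rose in WT cells, and *Mmp12* and *Mmp27* fell in KO cells, each with a mean normalized count under 100. By genotype 1 of the 14 passed under basal conditions (*Mmp25*, 0.138 ± 0.237 CPM in WT and 0.469 ± 0.197 in KO). With cytokines and in the interaction 0 of 14 passed by edgeR.

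Of 13 other genes of the plasminogen system 8 passed the filter. With cytokines 1 rose and 0 fell in WT cells and 0 rose and 1 fell in KO cells. *S100a10*, which with annexin A2 binds plasminogen at the cell surface, rose from 876 ± 67.0 to 1411 ± 182 CPM in WT cells (log2 fold change 0.69, SE 0.072, edgeR adjusted p = 8.49e-09). In KO cells *S100a10* was at 1163 ± 85.6 and 1645 ± 74.9 CPM, under the threshold on the fold change (log2 fold change 0.50, SE 0.057, edgeR adjusted p = 3.38e-08), and the interaction did not pass (-0.19, edgeR adjusted p = 0.545). *Anxa2*, annexin A2, and *Serpinb2*, which encodes an inhibitor of plasminogen activators, were abundant, at 2122 ± 104 and 1191 ± 124 CPM in WT basal cells, and neither passed both thresholds in any contrast. In KO cells both were lower with cytokines by less than the threshold on the fold change (log2 fold change -0.17, edgeR adjusted p = 0.00104, for *Anxa2* and -0.26, edgeR adjusted p = 0.00221, for *Serpinb2*). *Serpine2*, named after its values were seen, was higher by less than that threshold in WT (0.37, edgeR adjusted p = 0.000265) and KO cells (0.41, edgeR adjusted p = 2.83e-06). Also under it, *Lrp1* was lower in WT (-0.35, edgeR adjusted p = 0.000359) and KO cells (-0.16, edgeR adjusted p = 0.0340), and *Plgrkt* in KO cells (-0.18, edgeR adjusted p = 0.0488). *Mrc2*, a collagen receptor that associates with the urokinase receptor, fell in KO cells (0.867 ± 0.493 to 0.452 ± 0.315 CPM, edgeR adjusted p = 0.0772), and was named after its values were seen. By genotype 0 of the 8 passed in either condition or in the interaction by edgeR. Past the threshold on the adjusted p alone were *S100a10*, higher in KO cells under basal conditions (log2 fold change 0.41, edgeR adjusted p = 9.78e-05) and with cytokines (0.22, edgeR adjusted p = 0.0842), and 3 genes in basal cells, *Anxa2* (0.13, edgeR adjusted p = 0.0506), *Lrp1* (-0.26, edgeR adjusted p = 0.00943) and *Plgrkt* (-0.22, edgeR adjusted p = 0.0808). *Lrp1* and *Plgrkt* were named after their values were seen. *Plg*, which encodes plasminogen itself, was under the filter, at 0.0150 CPM on average over the 26 libraries, and *Cpb2* was at 0 in all libraries.

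The genes whose log2 CPM followed each member most closely over the 26 libraries were found among all genes tested, as a description of libraries that share the same 4 groups. By Pearson r, those of *Plaur* were *Sqstm1* (0.986), *Smurf1* (0.982) and *Slc25a24* (0.981). For *Mmp9* they were *Zc3h12a* (0.984), *Cxcl16* (0.982) and *Cdcp1* (0.980), and for *Plau* they were *Rab32* (0.977), *Dsc2* (0.977) and *Micall2* (0.975). *Mmp13* was followed most closely by *P2rx4* (0.915), *Lgi2* (0.897) and *Jag1* (0.889), and *Mmp3* by *Il1rl1* (0.819), *Wsb1* (0.786) and *Mfsd1* (0.777). Members that did not pass the cytokine test followed, with *Col6a2* (0.845), *Grina* (0.827) and *Fam135a* (0.809) for *Plat* and *Cul9* (0.749), *Gm43052* (0.739) and *Rps19-ps6* (0.687) for *Timp1*. Those of *Mmp10* were *Rnf149* (0.730), *Sgpl1* (0.715) and *Ppm1a* (0.708), and those of *Mmp14* were *Gm6485* (0.704), *Svil* (0.691) and *Nek11* (0.676).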

How the data were processed

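Per the labels and the methods of the study, the authors made strand-specific, paired-end mRNA libraries, aligned the reads to mm39 with STAR 2.7.10b and counted them per gene with featureCounts 2.0.6 (GENCODE vM31), and deposited the raw counts. The authors also deposited log2 values of the counts, scaled by a size factor and with 1 added. Whether reads or read pairs were counted, and the strand setting, were not stated. Of the counts from 1 to 20, 83.2% were even, as if both reads of each pair had been counted, and the counts and totals printed may then be about 2 times the fragments.

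Genes whose DESeq2-normalized count averaged over 10 were tested with edgeR 4.0.16 (R 4.3.3) on the deposited counts, using TMM, quasi-likelihood and 1 model of the 4 groups. The thresholds were an adjusted p of 0.1 and a fold change of 1.5. Standard errors were derived from the log2 fold change and the F statistic. The exact permutation p is the share of regroupings of the mice whose absolute mean difference is at least the observed one, adjusted (Benjamini-Hochberg) over all genes tested, and 144 genes had the smallest p possible. The edgeR fit and the exact permutation test were tested on simulated data, and the derived standard errors were not. Alternatives were DESeq2 1.42.0, its size factors, limma 3.58.1 on the deposited log2 values, other filters and thresholds, a fit of the pair of groups alone, a block for the mouse (fixed or random) and leaving out each mouse. Halved counts were chosen after seeing the data.

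Library totals ranged from 42072745 to 78102858, and counting error was not separated from the spread between mice. Libraries of a group differed from one another by a chi-square per degree of freedom of at least 7.22, where counting error alone gives about 1, or about 2 if both reads of each pair were counted. This does not tell separate preparations of 1 RNA from separate mice, for which the labels are the source.

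By the labels and methods, cells of 1 mouse gave both of its libraries, which pairs them. Within a mouse, the deviations of its libraries from their group means had correlations of 0.000509 to 0.254 (median 0.106).

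Members and lists were chosen with earlier results of these data known. Listed genes were named if they passed the test with a mean normalized count over 100 or were among the 3 most expressed of their list, and for each member the 3 genes with the highest correlation were named. Positions and exon lengths are from GENCODE vM39 (GRCm39).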

Additional observations from a re-analysis of the deposited data

Results flagged for a closer look

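Of 36 groups of libraries (9 genes in 4 groups), 2 had a library far from the others, and chance flags about 1 in 20 groups. *Mmp3* was at 1.196 CPM in WT basal replicate 4, below the other 4 WT basal libraries. *Plaur* was at 145 CPM in KO cytokine replicate 7, above the other 7 KO cytokine libraries. The response of *Plaur* to cytokines differed between the genotypes, by -1.01 on the log2 scale (edgeR adjusted p = 0.0301 for the interaction). No cause of these values was tested.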

How the results depend on the processing

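The 5 members that rose with cytokines passed in both genotypes in all alternatives tried. The basal *Plaur* difference passed in all those that test it. The fixed block for the mouse does not, because each mouse has 1 genotype and the block takes up the difference between mice, so neither genotype contrast was fitted with it. With DESeq2, 2 members passed by genotype under basal conditions and 60 genes passed the interaction. With the mouse as a fixed block, 2 members and 80 genes passed the interaction, and with the mouse as a random block 1 member passed by genotype with cytokines. In the contrasts fitted, the block changed no other call of a member. With no filter on low counts 3305 genes passed the cytokine test in KO cells, and with only the 2 groups compared 180 passed by genotype with cytokines. At an adjusted p of 0.05 in the model of all 4 groups, the genotype contrast with cytokines gave 54 genes and the interaction 21. With no threshold on the fold change, 6221 genes passed with cytokines in WT, 6048 in KO, 2303 by genotype under basal conditions (with 3 members), 479 by genotype with cytokines and 166 the interaction. The stricter and looser thresholds set their own counts, and for the others the cause was not tested.

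Signs turned in members that passed no test of that contrast. With limma on the log2 values these were *Timp1* with cytokines in KO (0.74), *Mmp13* by genotype under basal conditions (0.011) and *Mmp10* in the interaction (-0.022). With no filter *Mmp14* in KO turned to 0.0026. With the fixed block *Timp1* in KO was 0.56 and *Mmp10* in the interaction -0.020, and with the random block *Timp1* in KO was 0.93 and *Mmp13* by basal genotype 0.0046. With counts halved, chosen after seeing the data, *Plau* by genotype with cytokines was 0.00010, and no call of a member changed.

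With each mouse left out in turn, 1 to 2 members passed by basal genotype and 0 to 1 the interaction. By basal genotype 341 to 824 genes passed (the highest without WT replicate 1). By genotype with cytokines 44 to 558 genes passed (558, 61, 44, 47 and 60 without WT replicates 1 to 5, 75, 62, 67, 55, 51 and 291 without KO replicates 1, 2, 3, 5, 6 and 8). In the interaction 18 to 92 genes passed (92, 23, 18 and 21 without WT replicates 1, 2, 4 and 5, 19 and 60 without KO replicates 5 and 8). Log2 differences whose sign turned ranged, with cytokines, from -0.63 to 0.32 for *Timp1* in WT, from -0.34 to 0.41 for *Timp1* in KO and from -0.029 to 0.016 for *Mmp14* in KO. By basal genotype *Mmp13* ranged from -0.28 to 0.11. By genotype with cytokines they were -0.031 to 0.018 for *Plau*, -0.013 to 0.0063 for *Mmp14*, -0.076 to 0.18 for *Plaur* and -0.24 to 0.022 for *Mmp9*. In the interaction they were -0.072 to 0.26 for *Plat*, -0.073 to 0.079 for *Mmp10* and -0.35 to 0.60 for *Timp1*. The change within each mouse, KO minus WT, ranged from -0.10 to 0.061 for *Mmp10*, from -0.0056 to 0.26 for *Plat* and from -1.13 to -0.92 for *Plaur*. The cause was not tested. *Timp1* had 0 to 60 counts per library, and whether depth limits its precision was not tested.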
